A study of Arabidopsis thaliana with 16 samples.

Results

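The histone H2A genes described here are 10 Arabidopsis thaliana loci taken by locus identifier from the deposited expression tables. HTA6 (AT5G59870), HTA7 (AT5G27670) and HTA12 (AT5G02560) encode H2A.W, HTA3 (AT1G54690) and HTA5 (AT1G08880) encode H2A.X, HTA8 (AT2G38810), HTA9 (AT1G52740) and HTA11 (AT3G54560) encode H2A.Z, and HTA10 (AT1G51060) and HTA13 (AT3G20670) encode canonical H2A. They are 10 of 32833 genes in the seedling table and 10 of 32548 in the leaf and shoot apical meristem (SAM) table, and all 10 passed the filter on low values in both tables. RNA was sequenced from 16 libraries in 8 groups of 2. The seedling groups were tcx5-/- tcx6-/- ddm1-/- (tcx5/6 ddm1), ddm1-/-, tcx5-/- tcx6-/- (tcx5/6) and wild type (WT), all aged 2 weeks and grown at 22 °C with 16 h of light and 8 h of dark. The other groups were tcx5/6 SAM, WT SAM, tcx5/6 leaf and WT leaf, grown at the same temperature and hours of light and dark. An age of 1 month was given for leaf and none for SAM. The labels name no alleles and no accession background, and they do not say whether the 2 libraries of a group came from separate plants, so p-values measure the spread between these libraries, which may be technical. The tissue field names seedlings for the leaf and SAM libraries too, so their tissue was taken from the titles.

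H2A pairs with H2B in every nucleosome, and plants use H2A proteins that differ mainly in their tails. H2A.W marks silent heterochromatin and is bound by the chromatin remodeller DDM1, H2A.X carries a phosphorylation site used by ATM and ATR at DNA breaks, and H2A.Z is placed near gene starts and in responsive genes by the SWR1 remodeller. Canonical H2A is supplied mainly during DNA replication. TCX5 and TCX6 are DNA-binding subunits of the plant DREAM complex, a repressor of cell cycle genes in cells that do not divide.

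In the TAIR10.1 annotation the H2A.W genes are HTA6 at chr5:24115354-24116220 (minus strand), HTA7 at chr5:9792509-9793560 (minus strand) and HTA12 at chr5:575225-577216 (plus strand). The H2A.X genes are HTA3 at chr1:20414316-20415287 (minus strand) and HTA5 at chr1:2846894-2848100 (minus strand). The H2A.Z genes are HTA8 at chr2:16219220-16220928 (minus strand), HTA9 at chr1:19645236-19646485 (plus strand) and HTA11 at chr3:20196140-20197726 (plus strand), and the canonical genes HTA10 at chr1:18926811-18927746 (plus strand) and HTA13 at chr3:7229390-7230146 (plus strand). Each model has 2 or 3 exons.

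Upstream sequence is shown for the 3 members whose window holds a histone octamer, HTA6, HTA10 and HTA13, and for HTA12, which was lower in tcx5/6 and holds none. HTA8 and HTA11, which were higher in tcx5/6 and hold none either, are not shown. Each line gives the 250 bases before the annotated start of the gene, 5′ to 3′ on the gene's strand, from the RefSeq TAIR10.1 genome. Capitals mark the histone octamer CGCGGATC and the CHR words TTTGAA and TTCGAA on either strand (CHR words are sites that DREAM-type CXC proteins can bind).
HTA6 chr5:24116221-24116470 (minus strand): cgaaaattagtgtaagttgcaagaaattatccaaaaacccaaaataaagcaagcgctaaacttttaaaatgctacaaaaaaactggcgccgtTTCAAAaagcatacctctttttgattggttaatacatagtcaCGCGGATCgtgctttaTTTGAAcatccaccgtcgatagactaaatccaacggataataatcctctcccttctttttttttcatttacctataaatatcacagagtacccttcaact
HTA10 chr1:18926561-18926810 (plus strand): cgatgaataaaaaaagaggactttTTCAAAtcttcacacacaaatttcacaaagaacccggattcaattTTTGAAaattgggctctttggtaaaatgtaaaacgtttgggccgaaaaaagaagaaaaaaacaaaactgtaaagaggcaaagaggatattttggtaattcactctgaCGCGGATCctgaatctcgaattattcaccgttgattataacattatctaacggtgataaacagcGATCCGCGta
HTA13 chr3:7229140-7229389 (plus strand): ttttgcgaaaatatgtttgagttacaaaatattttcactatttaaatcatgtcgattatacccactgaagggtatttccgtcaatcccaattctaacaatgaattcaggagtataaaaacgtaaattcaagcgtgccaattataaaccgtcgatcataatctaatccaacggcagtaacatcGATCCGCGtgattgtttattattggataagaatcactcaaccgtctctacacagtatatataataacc
HTA12 chr5:574975-575224 (plus strand): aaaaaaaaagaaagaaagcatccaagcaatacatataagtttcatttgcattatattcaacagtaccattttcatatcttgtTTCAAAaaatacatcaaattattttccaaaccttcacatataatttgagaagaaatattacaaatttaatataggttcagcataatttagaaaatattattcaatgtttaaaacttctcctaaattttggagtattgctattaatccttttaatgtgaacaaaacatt
None of these 4 windows runs into a neighbouring annotated gene. Of the members not shown, the 250 bases run into a neighbouring gene for 226 bases in HTA9, 202 in HTA5 and 66 in HTA7. In windows from 250 bases before to 50 after the start, the octamer was found in HTA6, HTA10 and HTA13 and in no other member, with 2 copies in HTA10. Of 27443 such windows of protein-coding genes, 0.146% held the octamer. The octamer was searched for after these sequences had been read. It begins 116 bases before the start in HTA6, 68 before it in HTA13, and 74 and 10 before it in HTA10. A CHR word was present in 6 of the 10 members (HTA6, HTA12, HTA3, HTA8, HTA9 and HTA10), against 48.7% of all windows. None of the E2F words TTTCCCGC, TTTCGCGC, TTTGCCGC or TTTGGCGC was found in the 10 windows, and 1.76% of all windows held at least 1 of them. These are matches of letters, not binding sites.

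The deposited values, called adjusted reads below, were taken as the authors' reads per gene after an adjustment for library size. The totals were not equal within either table. Seedling libraries totalled 31.13 to 38.82 M adjusted reads, leaf and SAM libraries 45.35 to 59.33 M, and the depth sequenced is unknown. Within groups, log2 values of 2 libraries correlated with r of 0.9841 to 0.9967 across genes. The number of genes at 0 was the same in both libraries of WT leaf (10420), tcx5/6 leaf (10525), WT seedlings (8786) and tcx5/6 seedlings (8882). It was 9700 and 9699 in tcx5/6 SAM, 8924 and 8927 in tcx5/6 ddm1, 9011 and 8968 in WT SAM, and 9106 and 9625 in ddm1. The 2 libraries of a group may thus not be independent, in which case their spread is too small and p-values too low. The reason was not tested. The ddm1 and tcx5/6 ddm1 seedling libraries had low values at fractional steps that WT and tcx5/6 seedling libraries nearly lacked. The number of genes at the fractional step was 27.6% to 42.5% of the number at the commonest low value in the first kind, and 0% to 0.494% in the second. These 2 patterns are called kinds of seedling library below, by their low values alone. No label names a kind, and what gave rise to the steps was not tested. All leaf and SAM libraries had such steps too. Comparisons of ddm1 or tcx5/6 ddm1 with WT or tcx5/6 seedlings also set the 2 kinds against each other. In these comparisons the kind and the genotype cannot be told apart. TCX5 was lower in tcx5/6 than in WT in seedlings, leaf and SAM (log2 change -0.95, -1.24 and -0.91), and TCX6, which the labels also name as mutated, was higher (2.29, 1.96 and 2.05). A transcript level does not tell whether a gene is intact, and reads per exon were not used here. DDM1 had 132 ± 18.7 adjusted reads in ddm1 and 678.6 ± 43.4 in WT seedlings (SD, n = 2), and 611.6 ± 60.6 in tcx5/6 ddm1 and 1993 ± 96 in tcx5/6 seedlings. The tcx5/6 ddm1 libraries, labelled ddm1-/-, were thus called higher than ddm1 for DDM1 (log2 change 2.21) and not called against WT (-0.15). Of 12 shoot meristem markers, 10 were higher in WT SAM than in WT leaf, and STM, WUS and CLV3 were listed at 0 in both leaf groups, while CLV3 was also at 0 in WT SAM. Flower markers summed to 10632 to 10657 adjusted reads in tcx5/6 SAM, 14229 to 14810 in WT SAM, 108.0 to 109.3 in tcx5/6 leaf and 88.51 to 89.48 in WT leaf. The SAM libraries thus held floral as well as meristem transcripts. Photosynthetic leaf markers did not set leaf apart, with sums of 761807 to 777275 adjusted reads in tcx5/6 SAM, 1100313 to 1121689 in WT SAM, 590766 to 614236 in tcx5/6 leaf and 469358 to 481616 in WT leaf. Of these 6 markers, 5 were called higher and 1 lower in WT SAM against WT leaf, and all 6 were called lower in tcx5/6 SAM against WT SAM (median log2 change -0.61).

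The comparison of tcx5/6 with WT asked how H2A transcripts stand in plants labelled as tcx5 tcx6 double mutants. The H2A.Z genes HTA8 and HTA11, the H2A.W gene HTA6 and the canonical genes HTA10 and HTA13 were higher in tcx5/6 than in WT in leaf, SAM and seedlings. In leaf the rise was 14.1-fold for HTA8, 11.7-fold for HTA11, 6.16-fold for HTA6, 4.7-fold for HTA13 and 2.26-fold for HTA10. HTA12 was lower in tcx5/6 than in WT in leaf and SAM. Tests used limma-trend on log2(value + 1), so each log2 change and fold is on that scale, and a gene was called at a Benjamini-Hochberg adjusted p under 0.05 over all genes tested.

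In leaf, 9 of the 10 genes were called higher in tcx5/6 and 1 lower, against 21.3% of 24429 genes called higher and 21.4% called lower. The median log2 change of the 10 was 1.05. In SAM, 6 were called higher, 1 lower and 3 were not called, against 15.6% of genes called higher and 14.5% called lower, and the median of the 10 was 0.30. In seedlings, 5 were called higher and 5 were not called, against 7.26% of 25016 genes called higher and 4.35% called lower, and the median was 0.25. The 3 members not called in SAM were HTA3, HTA5 and HTA9. The 5 not called in seedlings were these 3, HTA7 and HTA12. The median over all genes tested was 0 in each of these comparisons. In leaf, the change also moved with gene length among genes averaging at least 100 adjusted reads. Of 1919 genes with under 1000 bases of exon, 43.1% were called higher and 8.34% lower (median log2 change 0.24), and of 841 genes with 4000 bases or more, 9.99% were called higher and 61.5% lower (median -0.44). The members are short, with 664 to 1506 bases of exon, so their 9 calls stand against this larger share of short genes called higher. The 2 tcx5/6 leaf libraries differed by length as well, replicate 1 minus replicate 2 having a median log2 of 0.09 in the shortest and -0.34 in the longest of these genes, against 0.01 and -0.01 in WT leaf. In tcx5/6 against WT SAM and seedlings the medians of these length groups lay between -0.03 and 0.05. The part of gene length in the H2A values was not tested. In bulk samples, a change in the share of dividing cells and a change in RNA per cell cannot be told apart.

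**Figure D1:**
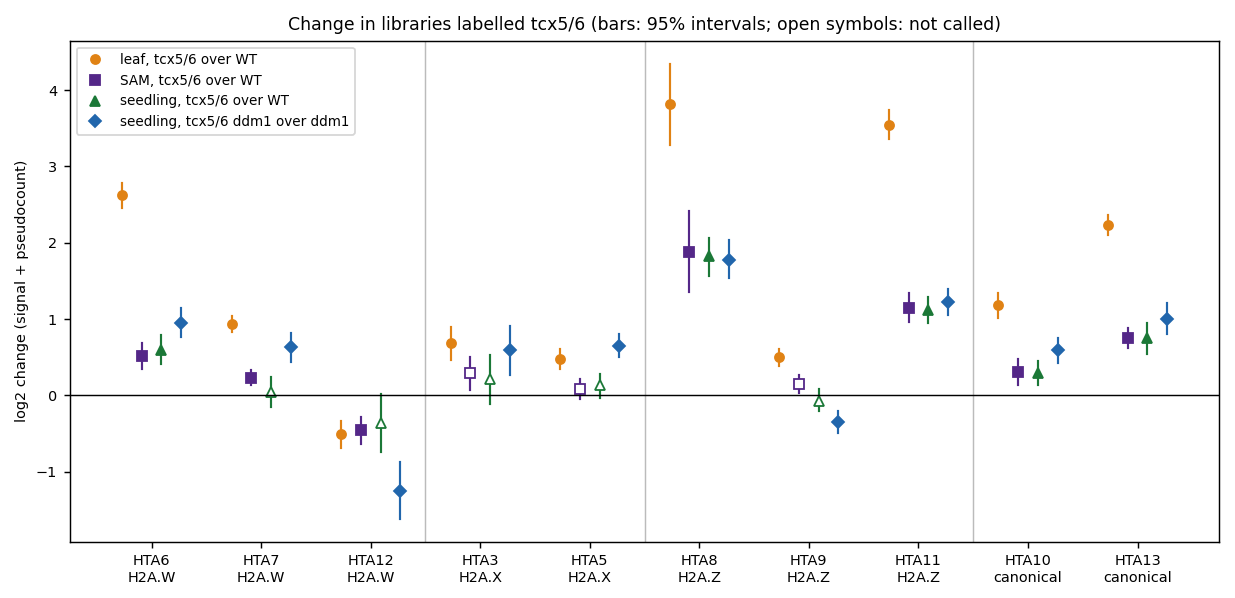
Log2 change of each H2A gene (y axis, log2 of value plus 1) in tcx5/6 over WT leaf, SAM and seedlings and in tcx5/6 ddm1 over ddm1 seedlings, with 95% intervals from limma; filled symbols were called. In leaf HTA8 (3.82) and HTA11 (3.55) stand highest, and HTA12 lies below 0 in all 4 comparisons, with the seedling value (-0.36) not called.

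Among the H2A.W genes, HTA6 had the highest level per kb of all 10 members in both SAM groups. It had 3725 and 3372 adjusted reads in tcx5/6 leaves, against 608.9 and 542.2 in WT leaves (log2 change 2.62, SE 0.068, adjusted p = 1.8e-06). In SAM it had 15388 and 15717 in tcx5/6, against 11008 and 10774 in WT (log2 change 0.51, adjusted p = 0.0015). In seedlings it had 3671 and 3558 in tcx5/6, against 2536 and 2244 in WT (log2 change 0.60, adjusted p = 0.0027). The tcx5/6 and WT libraries did not overlap in any of the 3 settings. How many of all genes lacked overlap in this way was not counted, so a lack of overlap is given as a description only. HTA7 also encodes H2A.W and had 3671 and 3436 adjusted reads in tcx5/6 leaves, against 1885 and 1832 in WT leaves (log2 change 0.93, adjusted p = 1.3e-05). Its SAM libraries had 6286 and 6258 in tcx5/6, against 5372 and 5333 in WT (log2 change 0.23, adjusted p = 0.0069). In seedlings HTA7 was not called (log2 change 0.04, 95% interval -0.15 to 0.24), and its libraries overlapped.

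HTA12, the third H2A.W gene, ran against the other members. It had 1158 and 1060 adjusted reads in tcx5/6 leaves, against 1515 and 1639 in WT leaves (log2 change -0.51, SE 0.0755, adjusted p = 0.0018). In SAM it had 446.6 and 431.4 in tcx5/6, against 610 and 598.1 in WT (log2 change -0.46, adjusted p = 0.0039). Seedling values were 266.6 and 314.2 in tcx5/6, against 326.3 and 422.4 in WT, without overlap but not called (log2 change -0.36, adjusted p = 0.22). The tcx5/6 libraries were thus the lower ones in each setting, with a called difference in leaf and SAM only. The annotated HTA12 transcript model lies over AT5G02570 on the opposite strand for 522 bases, and that gene was listed at 0 in every library. No source used here gives the strand setting of the counting, so reads from the shared stretch cannot be assigned to a strand.

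Both H2A.X genes were called higher in tcx5/6 leaf, and neither was called in SAM or seedlings. HTA5 had 7762 and 6872 adjusted reads in tcx5/6 leaves, against 5337 and 5195 in WT leaves (log2 change 0.47, adjusted p = 0.00068). It had 7039 and 7113 in tcx5/6 SAM, against 6671 and 6695 in WT SAM (log2 change 0.08, 95% interval -0.05 to 0.22, not called). HTA3 had 738.9 and 667.7 in tcx5/6 leaves, against 430.5 and 448.7 in WT leaves (log2 change 0.68, adjusted p = 0.0011). The leaf libraries of both genes did not overlap. HTA3 in SAM had 1189 and 1060 in tcx5/6, against 951.2 and 890.7 in WT, without overlap but just above the threshold (log2 change 0.29, adjusted p = 0.052). In seedlings neither gene was called, with log2 changes of 0.21 for HTA3 (95% interval -0.11 to 0.53) and 0.13 for HTA5 (-0.03 to 0.28). The HTA3 model overlaps AT1G54680 for 259 bases and AT1G07983 for 240 bases, both on the opposite strand. AT1G54680 had 83.14 to 281.4 adjusted reads over the 16 libraries, AT1G07983 was listed at 0, and their part in the HTA3 values was not tested.

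The H2A.Z genes split. HTA8 had 1952 and 1652 adjusted reads in tcx5/6 leaves, against 166.4 and 96.07 in WT leaves (log2 change 3.82, SE 0.227, adjusted p = 3.6e-05). In SAM it had 4341 and 4433 in tcx5/6, against 1188 and 1187 in WT (log2 change 1.88, adjusted p = 0.00095). Seedling values were 1000 and 964.1 in tcx5/6, against 301.7 and 256.3 in WT (log2 change 1.82, adjusted p = 4.8e-05). HTA8 thus had the largest log2 change of the 10 members in all 3 settings. HTA11 had 1511 and 1454 in tcx5/6 leaves, against 115.3 and 137.3 in WT leaves (log2 change 3.55, SE 0.0808, adjusted p = 1.3e-06). SAM libraries had 9828 and 9712 in tcx5/6, against 4380 and 4429 in WT (log2 change 1.15, adjusted p = 9.7e-05). Seedlings had 2205 and 2188 in tcx5/6, against 980.3 and 1034 in WT (log2 change 1.12, adjusted p = 7.2e-05). No tcx5/6 library of HTA8 or HTA11 overlapped its WT group.

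HTA9, the H2A.Z gene with the highest level in WT leaf, stood apart from HTA8 and HTA11. It had 6495 and 5943 adjusted reads in tcx5/6 leaves, against 4374 and 4433 in WT leaves (log2 change 0.50, adjusted p = 0.0003). It had 8254 and 8067 in tcx5/6 SAM, against 7529 and 7198 in WT SAM, and was not called (log2 change 0.15, adjusted p = 0.062). Seedlings had 2842 and 2980 in tcx5/6, against 2957 and 3151 in WT (log2 change -0.07, 95% interval -0.21 to 0.08, not called). The seedling libraries overlapped, while those of leaf and SAM did not.

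Both canonical genes were called higher in all 3 settings. HTA13 had 3019 and 2701 adjusted reads in tcx5/6 leaves, against 605 and 608.3 in WT leaves (log2 change 2.23, SE 0.0553, adjusted p = 1.6e-06). SAM values were 8784 and 8749 in tcx5/6, against 5194 and 5203 in WT (log2 change 0.75, adjusted p = 0.00011). Seedling values were 1607 and 1606 in tcx5/6, against 1007 and 910.6 in WT (log2 change 0.75, adjusted p = 0.0014). All HTA13 libraries of tcx5/6 lay above their WT group. HTA10 had 5879 and 5135 in tcx5/6 leaves, against 2315 and 2552 in WT leaves (log2 change 1.18, adjusted p = 3.9e-05). In SAM it had 13777 and 13508 in tcx5/6, against 11017 and 10939 in WT (log2 change 0.31, adjusted p = 0.015). In seedlings it had 3506 and 3218 in tcx5/6, against 2783 and 2696 in WT (log2 change 0.29, adjusted p = 0.03). HTA10 lay higher in every tcx5/6 library, but its SAM and seedling calls rested on all libraries. The SAM call was lost without tcx5/6 replicate 1 or 2 (adjusted p = 0.094 and 0.075) and without WT replicate 1 or 2 (0.083 and 0.09), and the seedling call likewise (0.24 and 0.075 without tcx5/6 replicate 1 or 2, 0.12 and 0.2 without WT replicate 1 or 2). HTA10 and HTA13 share 38 stretches of 50 identical bases, 4.81% of those of HTA10, and whether any read was shared between the 2 genes was not tested. HTA13 also overlaps AT3G20680 on the opposite strand for 79 bases, and that gene had 213.4 to 1193 adjusted reads.

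**Figure D2:**
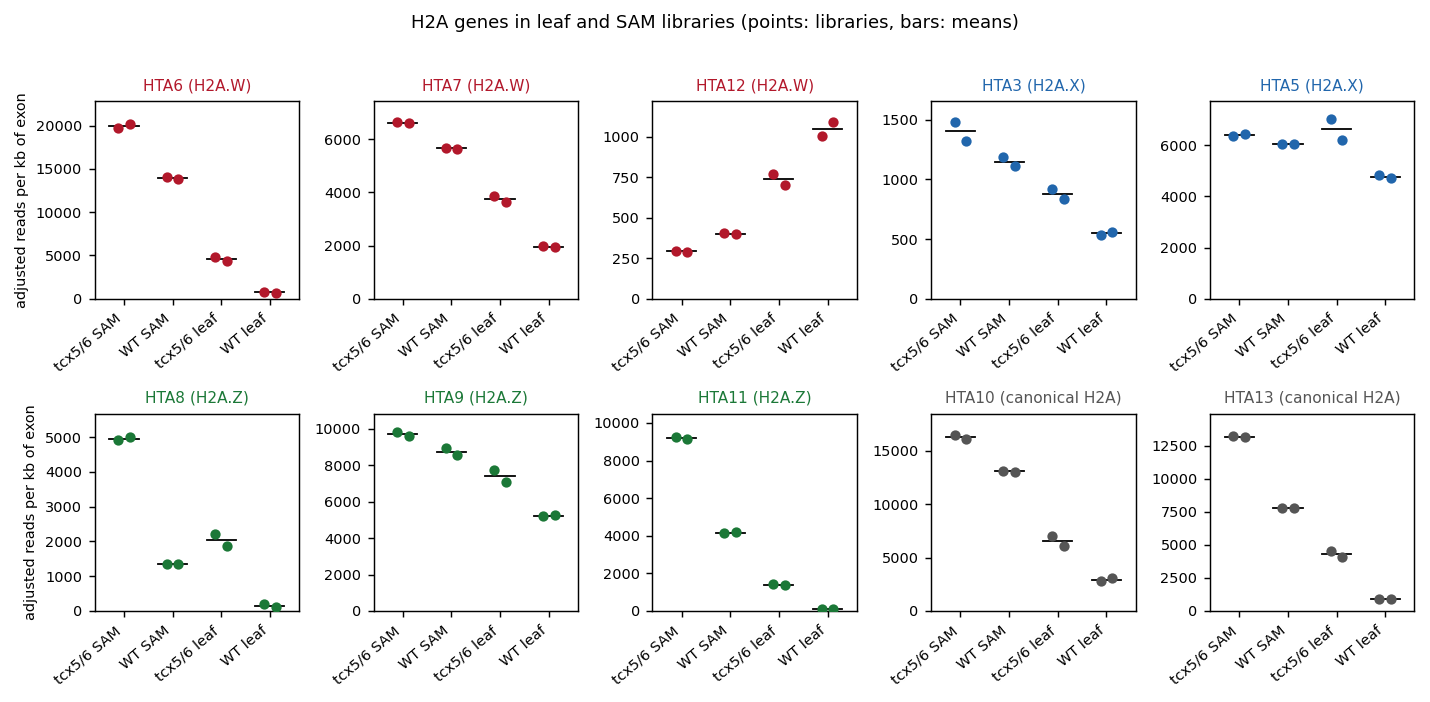
Level of each H2A gene (y axis, adjusted reads per kb of annotated exon, linear from 0, scaled per panel) in tcx5/6 SAM, WT SAM, tcx5/6 leaf and WT leaf libraries; points are libraries and bars group means. HTA12 is the gene whose lowest values are in SAM and highest in WT leaf (1006 and 1088 per kb).

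The change with tcx5/6 differed between SAM and leaf for 8 of the 10 genes. The tcx5/6 change in SAM minus that in leaf was called lower for these 8 and higher for 0 by limma-trend (9 of the 10 had an unadjusted p under 0.05), against 15.9% of genes called lower and 14.8% called higher. The difference was -2.40 for HTA11 (adjusted p = 5e-05), -2.11 for HTA6 (adjusted p = 4.3e-05), -1.93 for HTA8 (adjusted p = 0.0054) and -1.48 for HTA13 (adjusted p = 7.5e-05). It was smaller for HTA10 (-0.86), HTA7 (-0.71), HTA5 (-0.39) and HTA9 (-0.35). The leaf change that moved with gene length enters this difference. HTA12 had a difference of 0.05 (95% interval -0.20 to 0.30), and HTA3 one of -0.39 (adjusted p = 0.057), and neither was called. The HTA5 call was lost without tcx5/6 SAM replicate 1 (adjusted p = 0.051), and HTA3 was called without tcx5/6 leaf replicate 2 (difference -0.46, adjusted p = 0.034).

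The comparison of WT SAM with WT leaf gives the setting in which these changes sit. HTA11 was 34.7-fold higher in WT SAM than in WT leaf, HTA6 18.9-fold, HTA8 9.32-fold, HTA13 8.56-fold and HTA10 4.52-fold, and HTA12 was lower. Of the 10 genes 9 were called higher and 1 lower, against 43.2% of genes called higher and 35.6% called lower. The median log2 change was 1.85 for the 10 genes, against 0.21 for all genes tested. HTA6 had log2 change 4.24 (adjusted p = 4.6e-09), HTA11 5.12 (adjusted p = 4.4e-09) and HTA12 -1.38 (adjusted p = 1.8e-06). By length, the medians ran the other way than in tcx5/6 leaf against WT leaf, at -0.16 below 1000 bases of exon and 0.55 from 4000 bases on. The smallest rise was that of HTA5, at log2 0.34 (adjusted p = 0.00089). Between tcx5/6 SAM and tcx5/6 leaf, 8 genes were called higher, 1 lower and 1 was not called, against 43.1% of genes called higher and 35.2% called lower. There the median log2 change was 1.05 for the 10 genes, against 0.20 for all genes tested. By length, the medians in tcx5/6 ran from -0.33 below 1000 bases of exon to 1.14 from 4000 bases on. Of the genes below 1000 bases, 35.9% were called higher and 52.3% lower. HTA11 again had the largest rise (log2 2.72, adjusted p = 7.5e-08) and HTA12 was lower (log2 -1.33, adjusted p = 2.2e-06). HTA5 was not called (log2 -0.05, 95% interval -0.18 to 0.09), with 7039 and 7113 adjusted reads in tcx5/6 SAM and 7762 and 6872 in tcx5/6 leaf, and it was called lower without tcx5/6 leaf replicate 2 (log2 -0.13, adjusted p = 0.008).

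Cell cycle markers moved in the same settings. Of 14 S phase markers, 14 were called higher in tcx5/6 than in WT leaf, 11 in SAM and 12 in seedlings. Their summed level was 17739 to 20435 adjusted reads in tcx5/6 leaf and 5141 to 5259 in WT leaf, 60375 to 60527 in tcx5/6 SAM and 41583 to 41959 in WT SAM, and 25047 to 25062 in tcx5/6 and 14914 to 16045 in WT seedlings. Of 9 G2/M markers, 8 were called higher in leaf, 6 in SAM and 4 in seedlings. All 14 S phase and all 9 G2/M markers were called higher in WT SAM than in WT leaf. No S phase or G2/M marker was listed at 0 in both libraries of any group. The part of cell division in the H2A values was not tested.

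**Figure D3:**
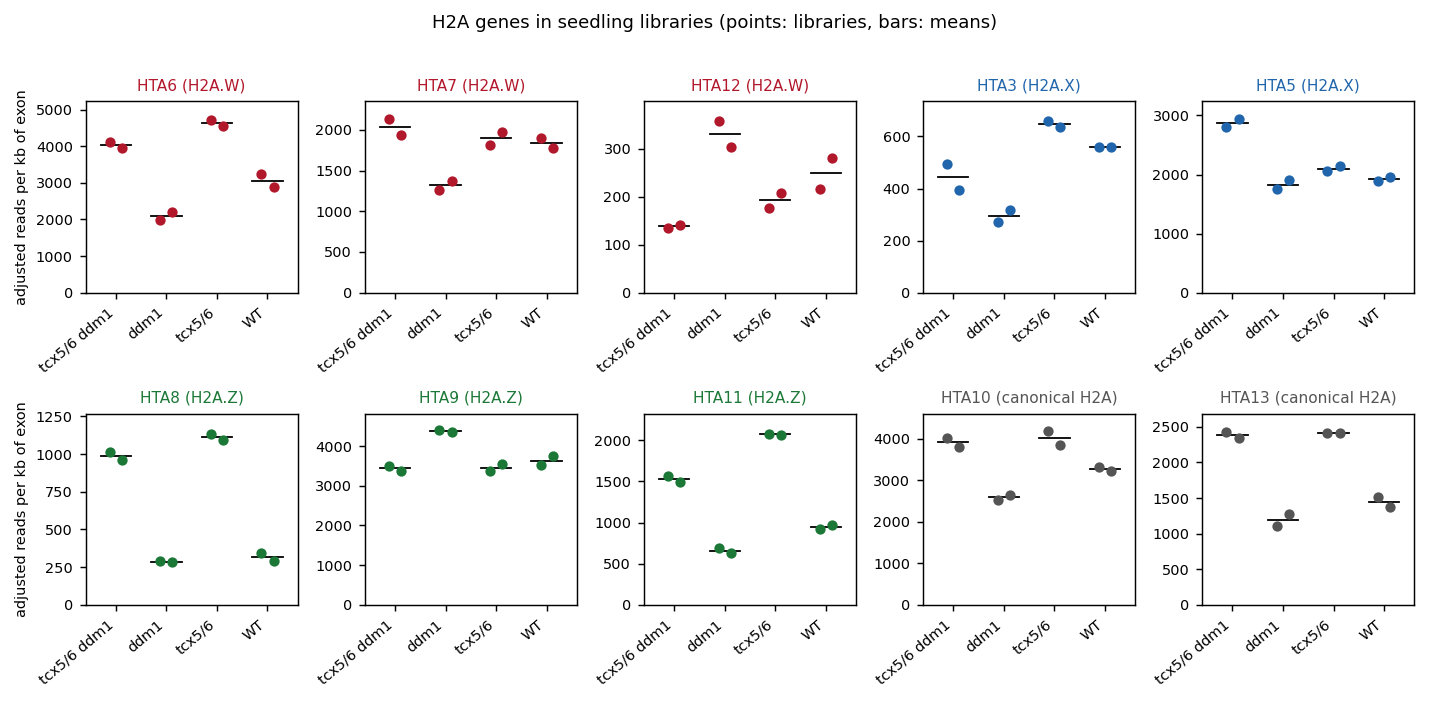
Level of each H2A gene (y axis, adjusted reads per kb of annotated exon, linear from 0, scaled per panel) in tcx5/6 ddm1, ddm1, tcx5/6 and WT seedling libraries; points are libraries and bars group means. HTA8 and HTA11 lie high in both groups that carry tcx5/6, while HTA9 and HTA12 have their highest values in ddm1 (HTA9 4408 and 4349 per kb).

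The comparison of tcx5/6 ddm1 with ddm1 tested the same genes between groups that both carry the ddm1-/- label, and here both are of 1 kind of library. Their DDM1 transcript was not alike, with 611.6 adjusted reads in tcx5/6 ddm1 and 132 in ddm1, so the tcx5/6 ddm1 libraries are called by their label only. Between tcx5/6 ddm1 and ddm1, all 10 genes were called, with 8 higher and 2 lower, against 17.7% of genes called higher and 21.6% called lower. The median log2 change was 0.64 for the 10 genes, against -0.02 for all genes tested. HTA8 had 893.9 and 851.9 adjusted reads in tcx5/6 ddm1, against 255.6 and 249.9 in ddm1 (log2 change 1.78, adjusted p = 2.1e-05). HTA11 had 1659 and 1580 in tcx5/6 ddm1, against 726.8 and 668.1 in ddm1 (log2 change 1.22, adjusted p = 2.2e-05). HTA6 had 3215 and 3086 in tcx5/6 ddm1, against 1540 and 1722 in ddm1 (log2 change 0.95, adjusted p = 9.2e-05). These 3 genes, HTA13 (log2 change 1.00) and HTA10 (0.59) were called higher here and also in tcx5/6 against WT. HTA7 (0.63), HTA5 (0.65) and HTA3 (0.59) were called higher here but not in tcx5/6 against WT. Photosynthetic leaf markers summed to 939807 to 1119424 adjusted reads in tcx5/6 ddm1 and 2359678 to 2438717 in ddm1, with 5 of 6 called lower in tcx5/6 ddm1. All 14 S phase markers (median log2 change 1.27) and 8 of 9 G2/M markers were called higher in tcx5/6 ddm1, with S phase sums of 29461 to 30870 adjusted reads in tcx5/6 ddm1 and 9281 to 9833 in ddm1. Of 5 seed markers, 2 were called lower. The part of these markers in the H2A values was not tested, and without ddm1 replicate 1 or 2 all 10 H2A genes were again called.

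The lower genes in tcx5/6 ddm1 were HTA12 and HTA9. HTA12 had 204.1 and 213.6 adjusted reads in tcx5/6 ddm1, against 539.4 and 458.2 in ddm1 (log2 change -1.25, SE 0.164, adjusted p = 0.00066). HTA9 had 2946 and 2844 in tcx5/6 ddm1, against 3712 and 3662 in ddm1 (log2 change -0.35, adjusted p = 0.0031). Neither gene's libraries overlapped. Whether the tcx5/6 change differed between seedlings labelled with and without ddm1-/- was tested as an interaction, in which 2 genes were called higher, 1 lower and 7 were not called, against 5% of genes called higher and 9.51% called lower. The difference was 0.59 for HTA7 (adjusted p = 0.016), 0.53 for HTA5 (adjusted p = 0.01) and -0.89 for HTA12 (adjusted p = 0.039). HTA3 had a difference of 0.38 (adjusted p = 0.24), HTA8 one of -0.03 (95% interval -0.38 to 0.32) and HTA11 one of 0.09 (-0.15 to 0.33), and these were not called. This interaction also crosses the 2 kinds of library, and it rested on single libraries: without tcx5/6 seedling replicate 1 it called 0 of the 10 genes by limma-trend (6 had an unadjusted p under 0.05), with adjusted p = 0.071, 0.054 and 0.072 for HTA7, HTA5 and HTA12, and without WT seedling replicate 1 it called only HTA5 (adjusted p = 0.075 for HTA7 and 0.14 for HTA12). The HTA5 call was lost without WT seedling replicate 2 (adjusted p = 0.052), and that of HTA12 without ddm1 replicate 1 (0.087), tcx5/6 ddm1 replicate 1 or 2 (0.073 and 0.058) or tcx5/6 replicate 2 (0.15).

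The ddm1 seedlings themselves had less of 6 H2A transcripts than WT seedlings. Of the 10 genes 1 was called higher, 6 lower and 3 were not called, against 26.3% of genes called higher and 23.3% called lower, and the median log2 change was -0.31. HTA3 fell to 217.2 and 252.9 adjusted reads in ddm1, against 448.5 and 448.5 in WT (log2 change -0.93, adjusted p = 0.0007). HTA6 fell to 1540 and 1722 in ddm1, against 2536 and 2244 in WT (log2 change -0.55, adjusted p = 0.00075). HTA11 fell to 726.8 and 668.1 in ddm1, against 980.3 and 1034 in WT (log2 change -0.53, adjusted p = 0.0005). HTA7 (-0.48), HTA10 (-0.33) and HTA13 (-0.28) were also called lower. HTA9 was higher, with 3712 and 3662 adjusted reads in ddm1 and 2957 and 3151 in WT (log2 change 0.27, adjusted p = 0.0071). HTA12 had 539.4 and 458.2 in ddm1, against 326.3 and 422.4 in WT, without overlap but not called (log2 change 0.42, adjusted p = 0.063). The HTA13 call was lost without ddm1 replicate 1 (adjusted p = 0.16) or WT replicate 1 (0.19) and that of HTA9 without WT replicate 1 (0.065), while HTA12 was called without WT replicate 2 (log2 change 0.61, adjusted p = 0.041). All 14 S phase markers and 8 of 9 G2/M markers were also called lower in ddm1 than in WT, with S phase sums of 9281 to 9833 adjusted reads in ddm1 and 14914 to 16045 in WT. Of 11 shoot meristem markers tested, 1 was called higher and 3 lower in ddm1 (median log2 change -1.28), and of 6 photosynthetic leaf markers 3 were called higher and 1 lower. Among genes averaging at least 100 adjusted reads, 43.1% of those with under 1000 bases of exon were called higher and 17.7% lower in ddm1 (median log2 change 0.25), against 16.4% higher and 45.1% lower of those with 4000 or more (median -0.21). The 5 seed markers summed to 2485 adjusted reads in ddm1 replicate 1 and 34.98 in ddm1 replicate 2, against 25.2 to 28.06 in WT, so ddm1 replicate 1 stood apart. Without that library 1 of the 10 genes was called higher and 5 lower. The part of these markers in the H2A values was not tested, and the kind of library differs between these groups too.

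The remaining seedling comparisons set tcx5/6 ddm1 against WT and against tcx5/6. Against WT, 6 genes were called higher, 1 lower and 3 were not called, with 29.5% of genes called higher and 26.4% called lower. Among genes averaging at least 100 adjusted reads, the share called higher was 48.6% below 1000 bases of exon and 36.8% from 1000 to 2000 bases, the lengths of the members, and 20.2% from 4000 bases on. The 6 of 10 higher calls stand near these shares of short genes. HTA8 (log2 change 1.65, adjusted p = 5.7e-06), HTA13 (0.72), HTA11 (0.69), HTA5 (0.58), HTA6 (0.40) and HTA10 (0.26) were higher, and HTA12 was lower (-0.83, adjusted p = 0.0028). HTA10 was not called when WT replicate 2 was left out (adjusted p = 0.079), and HTA3 (log2 change -0.34) was called lower without tcx5/6 ddm1 replicate 1 (log2 change -0.50, adjusted p = 0.02). Against tcx5/6, 1 gene was called higher, 3 lower and 6 were not called, with 25.7% of genes called higher and 26% called lower. HTA5 was the higher gene, with 3100 and 3244 adjusted reads in tcx5/6 ddm1 and 2267 and 2371 in tcx5/6 (log2 change 0.45, adjusted p = 0.00065). HTA3 (-0.55), HTA12 (-0.47) and HTA11 (-0.44, adjusted p = 0.0013) were lower. The HTA12 call was lost without tcx5/6 ddm1 replicate 1 or 2 (adjusted p = 0.12 and 0.084) and without tcx5/6 replicate 1 or 2 (0.059 and 0.23), and the HTA3 call without tcx5/6 replicate 1 (0.065). In tcx5/6 ddm1 against tcx5/6 the median log2 change likewise ran between 0.29 in the shortest and -0.28 in the longest of these genes. Against WT, 9 of 14 S phase markers were called higher, while 5 of 6 photosynthetic leaf, 5 of 11 shoot meristem and 3 of 5 root markers were called lower. Against tcx5/6, 1 S phase marker was called higher and 7 lower, and 6 of 9 G2/M and 6 of 11 shoot meristem markers were called lower. The part of length and of these markers in the H2A values was not tested. The kind of library differs between the groups of both comparisons.

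Levels can be ranked between genes per kb of annotated exon, a scale that depends on the gene models. In tcx5/6 SAM HTA6 (19939 per kb) led and HTA12 (291.5) was lowest, without overlap between neighbours. In WT SAM the order was HTA6, HTA10, HTA9, HTA13, HTA5, HTA7, HTA11, HTA8, HTA3 and HTA12, with 13963 per kb for HTA6 and 401.1 for HTA12 and again no overlap. In tcx5/6 leaf HTA9 (7386 per kb), HTA5 (6634) and HTA10 (6564) led, HTA12 (736.3) was lowest, and the neighbours HTA5 and HTA10, and HTA6 and HTA13, overlapped. In WT leaf the order was HTA9, HTA5, HTA10, HTA7, HTA12, HTA13, HTA6, HTA3, HTA8 and HTA11, with means of 5230 per kb for HTA9 and 119 for HTA11, and HTA8 and HTA11 overlapped. HTA6 thus led in WT SAM and stood behind 6 members in WT leaf, and HTA12 was lowest in WT SAM and stood above 5 members in WT leaf. The highest mean was 68.4 times the lowest in tcx5/6 SAM and 34.8 times in WT SAM, and 10 times in tcx5/6 leaf and 43.9 times in WT leaf.

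Among seedlings HTA6, HTA10 and HTA9 were the first 3 genes in the orders of tcx5/6 ddm1 and tcx5/6, and HTA9, HTA10 and HTA6 those of ddm1 and WT. HTA6 averaged 4634 ± 102 per kb in tcx5/6 and 3064 ± 265 per kb in WT seedlings (SD, n = 2), and HTA9 3457 ± 116 in tcx5/6 and 3627 ± 163 in WT. HTA12 was lowest in tcx5/6 ddm1 (138.7 per kb), tcx5/6 (192.8) and WT (248.6), and HTA8 in ddm1 (285.9). Overlapping neighbours were HTA6 and HTA10 in tcx5/6 ddm1, HTA7 and HTA13, HTA12 and HTA3, and HTA3 and HTA8 in ddm1, HTA5 and HTA11 in tcx5/6, and HTA10 and HTA6, and HTA5 and HTA7, in WT.

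**Figure D4:**
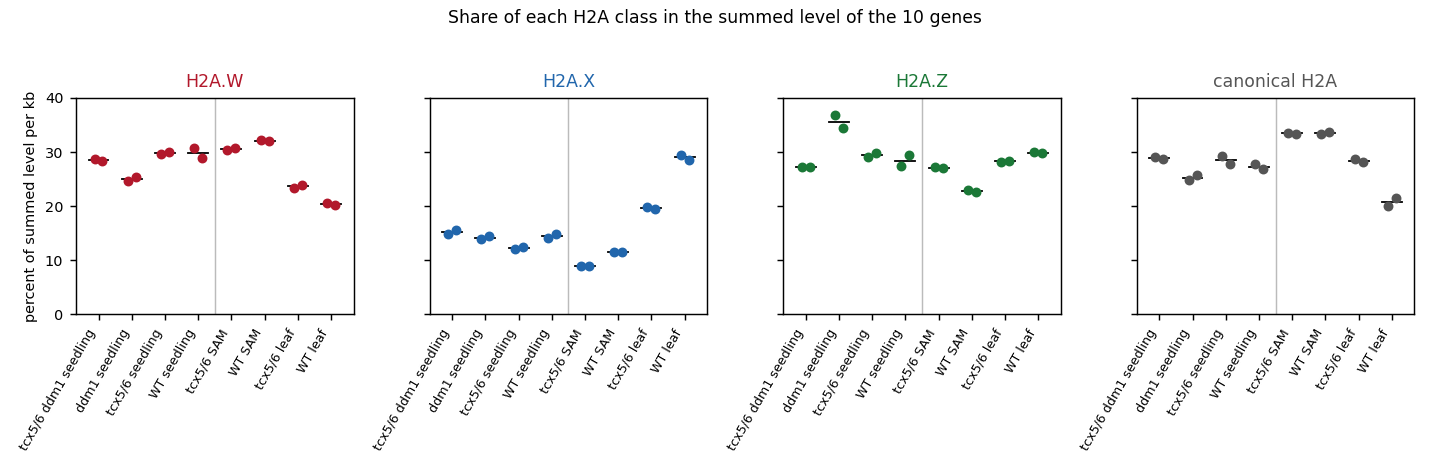
Percent of the summed level per kb of the 10 genes (y axis, linear from 0) held by each H2A class in every library, with seedling groups left of the grey line and SAM and leaf groups right of it; points are libraries and bars group means. H2A.X has its largest share in WT leaf (29.4% and 28.6%) and H2A.Z in ddm1 seedlings (36.8% and 34.4%).

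The share of each class in the 10 genes differed by tissue and genotype. These shares are summed levels per kb over the 10 genes, set out as a description without a test, and they leave out HTA1 and HTA2, which also encode canonical H2A. The 10 genes summed to 38247 per kb in tcx5/6 leaf and 18384 in WT leaf, a ratio of 2.08, and to 88004 in tcx5/6 SAM and 62383 in WT SAM, a ratio of 1.41. H2A.X made up 19.6% ± 0.176 in tcx5/6 leaf and 29.0% ± 0.558 in WT leaf (SD, n = 2), 8.88% in tcx5/6 SAM and 11.6% in WT SAM, and 12.2% in tcx5/6 and 14.4% in WT seedlings. Its libraries did not overlap in any of these pairs, and the lower share went with summed H2A.X levels that were higher in tcx5/6 (7512 and 5323 per kb in tcx5/6 and WT leaf). Canonical H2A made up 28.4% in tcx5/6 leaf and 20.7% in WT leaf, but 33.5% in both SAM groups. With HTA1 and HTA2 added to the class, an alternative chosen after seeing the data, canonical H2A made up 40.6% in tcx5/6 leaf and 34.3% in WT leaf, and 41% in tcx5/6 SAM and 41.4% in WT SAM. The H2A.X share then stood at 16.3% in tcx5/6 leaf and 24% in WT leaf. H2A.Z made up 27.1% in tcx5/6 SAM and 22.8% in WT SAM, and 28.3% in tcx5/6 leaf and 29.9% in WT leaf.

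In seedlings the H2A.Z share was 27.3% in tcx5/6 ddm1 and 35.6% in ddm1, and 29.5% in tcx5/6 and 28.4% in WT. The H2A.Z sum in tcx5/6 ddm1 (5952 per kb) was 1.12 times that in ddm1 (5322), while those of the other classes were 1.56 to 1.66 times as high in tcx5/6 ddm1 as in ddm1. Within H2A.Z, HTA8 (3.44-fold) and HTA11 (2.32-fold) had the largest rises of the 10 genes in this comparison, while HTA9, which held 4378 of the 5322 per kb in ddm1, fell. H2A.W made up 25.0% in ddm1 and 29.9% in WT seedlings, with sums of 3739 per kb in ddm1 and 5152 in WT. The log2 ratio of H2A.W to canonical H2A, taken as HTA10 and HTA13, was -0.02 in ddm1 and 0.13 in WT seedlings. It was -0.06 in WT SAM and -0.02 in WT leaf, and the libraries of these tissues overlapped. With HTA1 and HTA2 added to the class, H2A.W made up 28.3% and canonical H2A 41.4% in WT SAM. In WT leaf these shares were 16.9% and 34.3%, so the closeness of the tissues depended on leaving HTA1 and HTA2 out.

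Outside the 10 genes, the H2A genes HTA1, HTA2 and HTA4 had their own patterns. HTA1 was called higher in tcx5/6 leaf, with 3510 and 3278 adjusted reads in tcx5/6 and 1404 and 1423 in WT (log2 change 1.26, adjusted p = 6e-06). It was also called higher in SAM (0.40, adjusted p = 0.00091) and was not called in seedlings (0.13, adjusted p = 0.4). HTA2 was called higher in tcx5/6 leaf (0.86), SAM (0.42) and seedlings (0.42). Among these 3 genes, the only seedling call was lost without tcx5/6 or WT replicate 2, and the only lower call in leaf without tcx5/6 leaf replicate 1 or WT leaf replicate 1 or 2. HTA4 was lower, with 53.26 and 104.7 adjusted reads in tcx5/6 leaf, against 198 and 185.8 in WT leaf (log2 change -1.35, adjusted p = 0.03). It had 2.804 and 4.594 in tcx5/6 SAM, against 33.36 and 26.17 in WT SAM (log2 change -2.73, adjusted p = 0.0023). In seedlings HTA4 had 93.39 and 70.15 in tcx5/6, against 347 and 266.6 in WT, without overlap but not called (log2 change -1.90, adjusted p = 0.057). HTA4 and HTA12 were thus the H2A genes called lower in tcx5/6 leaf and SAM.

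The genes that place or modify H2A variants were described by their calls in the same comparisons, against the shares of all genes called that are given above for each. Of 10 genes for H2A.Z exchange, 0 were called by limma-trend in tcx5/6 against WT seedlings, and 0 had an unadjusted p under 0.05, with log2 changes of -0.12 to 0.10. In leaf 1 was called higher, YAF9A (log2 change 0.20), and 6 lower, among them the SWR1 catalytic subunit PIE1 (-1.11), SWC2 (-1.08) and INO80 (-1.08). In SAM 2 were called higher, ARP6 (0.23) and SWC4 (0.32), and the other 8 were not called. Leaving out tcx5/6 SAM replicate 2 kept 1 call in SAM, and leaving out any other SAM library kept 0. The 6 lower exchange genes in leaf stand against 21.4% of all genes called lower, and 61.5% of those with 4000 or more bases of exon, such as PIE1 and INO80. The tcx5/6 leaf libraries differed for PIE1, with 560 and 963.4 adjusted reads in tcx5/6 leaf, against 1625 and 1556 in WT leaf, and for INO80, with 803.2 and 1136 in tcx5/6 leaf, against 1960 and 2086 in WT leaf. They lay close together for the shorter YAF9A, with 1422 and 1439 in tcx5/6 leaf, against 1211 and 1281 in WT leaf, and its call was lost without WT leaf replicate 1. Without tcx5/6 leaf replicate 1 or 2, 6 exchange genes were again called lower. ATR, a kinase that phosphorylates H2A.X, was called higher in tcx5/6 leaf (log2 change 0.99), SAM (1.73) and seedlings (1.90), and ATM was lower in tcx5/6 leaf (-0.88) and not called in SAM or seedlings. Of 7 chaperones of H2A and H2B, NAP1;3 was called higher in leaf (0.35), SAM (0.68) and seedlings (0.42), SSRP1 was higher in SAM (0.23), and SPT16 (-0.62) and NRP2 (-0.26) were lower in leaf, where 4 were called lower without tcx5/6 leaf replicate 2. With any 1 of the 4 libraries compared left out, 0 chaperones were called in seedlings and 1 in SAM. Of 7 genes for H2A ubiquitination, BMI1C was called higher in seedlings (1.88), a call lost with any 1 of the 4 libraries left out. RING1A (-1.11), UBP12 (-0.43) and UBP13 (-0.26) were lower in leaf, and 0 were called by limma-trend in SAM, where 0 had an unadjusted p under 0.05. In leaf, 37.9% of genes with 2000 to 4000 bases of exon and 61.5% of longer ones were called lower. The part of gene length in the lower leaf calls of the kinase, chaperone and ubiquitination genes was not tested.

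Across the 8 group means, centred within each table, HTA6, HTA7, HTA11, HTA10 and HTA13 followed each other closely, with Pearson r of 0.977 to 0.997. The means were not scaled within a table, so the large differences between SAM and leaf weigh most in these r values. In tcx5/6 against WT seedlings HTA7 was not called (log2 change 0.04), while HTA6, HTA11, HTA10 and HTA13 were called higher. HTA12 had r of -0.925 with HTA7 and -0.561 with HTA9, and a negative r with all other members. HTA5 and HTA9 had r of 0.25. These points share libraries and the authors' adjustment. By the same measure the genes outside the family most like the mean of each class, among 16219 genes with a mean of at least 100 adjusted reads in both tables, were EB1C (r = 0.994), AT3G13560 (0.992) and HAG1 (0.991) for H2A.W, and RPA2 (0.99), DPB2 (0.99) and RWA2 (0.986) for H2A.X. They were AT3G53680, AT3G44770 and AT4G39630 (0.996 each) for H2A.Z, and NPSN11 (0.999), AT5G62550 (0.998) and AT2G36200 (0.998) for canonical H2A. Genes with r over 0.95 numbered 151, 98, 184 and 356 for the 4 classes in that order, so these are a few among many. The H2A.W mean joins HTA6 and HTA7 with HTA12, which ran against both, so it need not follow each H2A.W gene.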

How the data were processed

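RNA-seq values were deposited in 2 tables, 1 for the 8 seedling libraries and 1 for the 8 leaf and SAM libraries. The authors deposited them as a signal, taken here as reads per gene adjusted for library size, so they were treated as neither counts nor levels per length. HISAT2, edgeR and the build TAIR10 are named in the submitters' processing notes. No source used here gives versions, the counting tool, the annotation, the strand setting or the depth. No counting interval was computed, because the depth is unknown.

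The 2 tables were fitted separately by limma-trend (limma 3.58.1, R 4.3.3) on log2(value + 1), with all 8 libraries and 1 coefficient per group. Genes entered a fit if 2 or more libraries had a value of 1 or more. Benjamini-Hochberg adjustment ran over every gene in the fit. The pipeline was tested on simulated data. Levels per kb use exon lengths of the RefSeq TAIR10.1 annotation. Promoter sequence came from the same RefSeq genome by locus identifier, since the tables hold no coordinates. Figures used Python 3.11.15 and matplotlib 3.10.9.

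The genes, lists and tests were chosen with earlier results of these data known. All 10 H2A genes are described, and other genes are named where they belong to a listed partner group and were called, or were among the 3 most like a class. Alternatives were a pseudocount of 0.1, a filter at a value of 20, no filter, a median-of-ratios rescaling, a block for the replicate number, fits on only the groups compared, leaving out each library, class ratios without division by length, and, chosen after seeing the data, no variance trend, HTA1 and HTA2 added to the canonical class, and partner lists with each library left out.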

Additional observations from a re-analysis of the deposited data

Results flagged for a closer look

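Differences between settings in the change with tcx5/6 were called for 11 gene and setting pairs, each by an interaction term in limma-trend with Benjamini-Hochberg adjustment over all genes. Between SAM and leaf, the tcx5/6 change was smaller in SAM by log2 differences of -2.40 for HTA11, -2.11 for HTA6, -1.93 for HTA8, -1.48 for HTA13, -0.86 for HTA10, -0.71 for HTA7, -0.39 for HTA5 and -0.35 for HTA9 (adjusted p = 4.3e-05 to 0.012). Each of these 8 genes had its lowest level of the leaf and SAM groups in WT leaf, and so did HTA3, which was not called. The interaction term is built from these same values. Between seedlings labelled with and without ddm1-/-, the tcx5/6 change differed by 0.59 for HTA7, 0.53 for HTA5 and -0.89 for HTA12 (adjusted p = 0.01 to 0.039). In that contrast DDM1 had 611.6 adjusted reads in tcx5/6 ddm1 and 132 in ddm1. Those 3 differences cross the 2 kinds of seedling library, and what sets them apart was not tested.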

How the results depend on the processing

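Depth is unknown and each group has 2 libraries, so small changes of single members are the least certain. Over the alternatives that keep all libraries, the number of the 10 genes called in each comparison stayed within 1.5 times its reported value, except that without a variance trend the seedling interaction called 0 genes (3 reported, 4 at an unadjusted p under 0.05). With each library left out in turn, the number called was 4 for tcx5/6 against WT seedlings (5 reported), 5 to 8 for ddm1 against WT (7), 6 to 8 for tcx5/6 ddm1 against WT (7), 10 for tcx5/6 ddm1 against ddm1 (10), 2 to 3 for tcx5/6 ddm1 against tcx5/6 (4) and 0 to 3 for the seedling interaction (3). It was 10 for leaf (10), 6 for SAM (7), 10 for WT SAM against WT leaf (10), 9 to 10 for tcx5/6 SAM against tcx5/6 leaf (9) and 7 to 9 for the tissue interaction (8). The low count of 2 came without tcx5/6 seedling replicate 1, and those of 0 and 1 in the seedling interaction without tcx5/6 and WT seedling replicate 1; the cause was not tested. Fitted on the compared groups alone, HTA13 in ddm1 against WT and HTA3 in tcx5/6 ddm1 against ddm1 were not called (adjusted p = 0.071 and 0.067), and HTA3, HTA5 and HTA9 were called higher in SAM (0.014, 0.043 and 0.0052). Without a variance trend 10 calls of single genes were lost, and under rescaling HTA3 was called in the tissue interaction (-0.43, adjusted p = 0.046). Signs turned only for values that were not called in the reported fit. Under rescaling these were HTA9 in tcx5/6 ddm1 against tcx5/6 (0.00) and HTA8 in the seedling interaction (0.01). With each library left out in turn, log2 changes that crossed 0 ranged from -0.02 to 0.11 for HTA7 in tcx5/6 against WT seedlings, from -0.04 to 0.03 for HTA9, -0.10 to 0.03 for HTA10 and -0.05 to 0.00 for HTA13 in tcx5/6 ddm1 against tcx5/6, from -0.15 to 0.08 for HTA8 in the seedling interaction, from -0.13 to 0.04 for HTA5 in tcx5/6 SAM against tcx5/6 leaf, and from -0.02 to 0.11 for HTA12 in the tissue interaction. Over all genes, the number called ranged from 988 to 6508 for tcx5/6 against WT seedlings (2905 reported), 6497 to 9793 for tcx5/6 ddm1 against ddm1 (9832), 1280 to 4121 for the seedling interaction (3632), 4675 to 9886 for SAM (7356) and 4738 to 8750 for the tissue interaction (7501). Deviations of same-numbered libraries correlated at -0.0316 to 0.184, the highest between tcx5/6 and WT seedlings. The reported fits did not pair libraries by number, and whether same-numbered libraries shared a batch cannot be told from this. With the number as a block, 8 genes were called in SAM (HTA3 added, adjusted p = 0.05) and the other counts were as reported.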
